A study of Mus musculus with 10 samples.

Results

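Genes for making, sensing, moving and exporting cholesterol were followed in mouse pancreatic islets, the endocrine clusters of the pancreas that hold the insulin-secreting beta cells. The set holds 31 genes, chosen by gene symbol to span SREBP2 targets, lysosomal cholesterol genes and export genes driven by the liver X receptors (LXR). All 31 were found among the 27665 genes of the deposited table, and all 31 were among the 15104 genes that passed the filter on low counts. The samples were islets of male C57BL/6J mice, an inbred laboratory strain, aged 8 to 10 weeks. They were kept on western diet or on standard chow over 4 weeks, with 5 mice and 5 libraries per diet. No transgene or other agent is named for any group, and the sources used here do not name the composition of the diets. The labels place 4 western diet mice in cage 4 and 1 in cage 2, and all 5 chow mice in cage 3, so that diet and cage cannot be told apart.

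Cells make cholesterol from acetyl-CoA through the mevalonate pathway and then through squalene and a series of sterols. When cholesterol in the endoplasmic reticulum is low, the escort protein SCAP carries the transcription factor SREBP2 to the Golgi for cleavage, and its released part switches on genes of synthesis and uptake. The INSIG proteins hold SCAP back when sterols are plentiful, and LXR, activated by oxidised sterols, drives the exporters ABCA1 and ABCG1. Beta cells depend on this balance because the cholesterol content of their membranes affects insulin granules and secretion.

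Libraries held 1.65e+07 to 2.39e+07 counts. Levels below are CPM, which are counts scaled to library size with TMM factors, and fold changes are log2 ratios of western diet over chow. A gene was called, and is said to have risen or fallen, at a Benjamini-Hochberg adjusted p under 0.05 over all genes tested with edgeR's quasi-likelihood test. The summed level of 10 islet endocrine markers, such as the insulin genes, was 267500 to 300000 CPM on western diet and 260700 to 290500 CPM on chow, and Ins1 and Ins2 made up most of it. Of these 10 markers 1 fell, the zinc transporter gene Slc30a8 (edgeR adjusted p = 0.00452, without overlap), and 1 rose, the amylin gene Iapp (edgeR adjusted p = 0.0193). Of markers of other cells, the summed endothelial markers were 427 to 495 CPM on western diet and 501 to 566 CPM on chow. These sums did not overlap, but the 8 markers did not move as one. In edgeR 1 fell, Kdr (adjusted p = 0.00313), and DESeq2 called 3 lower, while 3 of the 8 had a positive log2 fold change. The 12 immediate early genes, which respond to cell stimulation and to tissue handling, all fell, with summed levels of 9394 to 11610 CPM on western diet and 15720 to 19160 CPM on chow. Summed acinar markers, from the digestive enzyme cells around islets, were 797 to 5805 CPM on western diet and 682 to 2820 CPM on chow, and 0 of 11 tested had an unadjusted p under 0.05 in edgeR, and DESeq2 called 0. Of the tested duct markers 2 of 7 fell, of the fibroblast and stellate markers 1 of 7, and 0 of 3 adipocyte markers passed the filter. Among all genes tested 5.5% fell and 5.27% rose. The part of these cells and shifts in the results below was not tested.

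**Figure D1:**
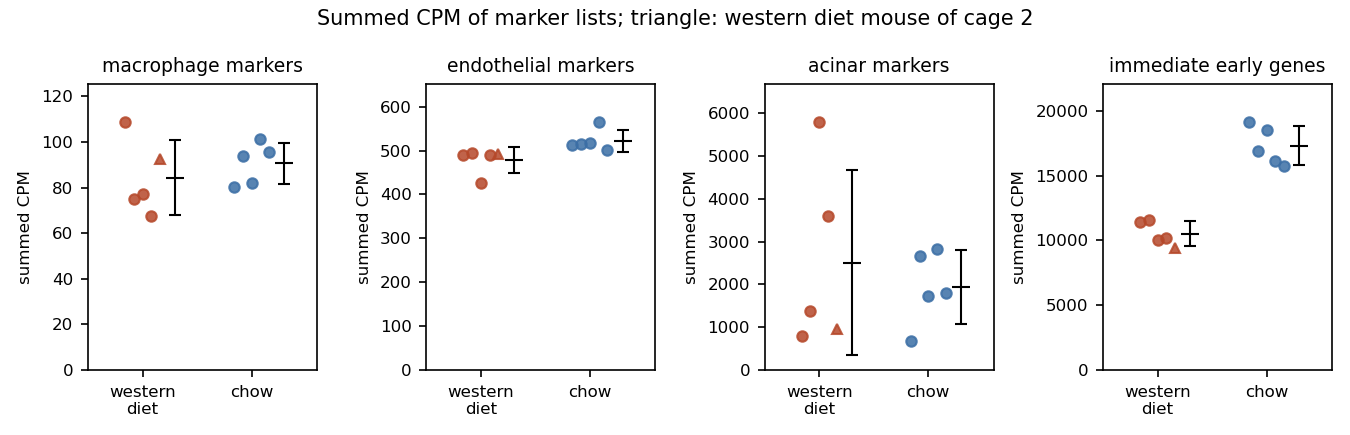
Summed CPM of the macrophage, endothelial and acinar marker lists and of the immediate early genes in each mouse, western diet left and chow right, with bars for the mean and SD of 5 mice per diet. The immediate early and endothelial sums separate the diets without overlap, and the macrophage and acinar sums overlap.

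Of the 31 genes 4 fell, which is 12.9% beside 5.5% of all genes tested, and 2 rose, which is 6.45% beside 5.27% of all genes tested. The genes that fell were Hmgcs1, Srebf2, Insig1 and Abcg1, and those that rose were Npc1 and Abca1. The median log2 fold change was -0.02 over the 31 genes and 0.01 over all genes tested, and 18 of the 31 fold changes were negative. The levels of the diets did not overlap for 2 genes that were lower, Hmgcs1 and Srebf2, and for 1 that was higher, Npc1, while 4.42% of all genes tested were lower without overlap and 4.44% were higher without overlap. The share that rose was close to that among all genes. The authors' deposited table gives an adjusted p under 0.05 for 5 of the 31 with a negative fold change, against 3.68% of the 27577 genes with a p there, and for 2 with a positive one, against 3.39%. Those 27577 genes include many that did not pass the filter on low counts, which left 15104 genes and which all 31 passed. The authors' shares are therefore of an unlike set, and the 31 cannot be read as above them on that basis. The fifth gene in the authors' deposited table is Stard4, with an adjusted p of 0.0396. The count that fell was 2 when western diet cage 4 mouse 1, western diet cage 4 mouse 4 or chow mouse 1 was left out. The count that rose was 1 when western diet cage 4 mouse 1, western diet cage 4 mouse 4, chow mouse 1 or chow mouse 3 was left out, and 0 when chow mouse 4 was.

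**Figure D2:**
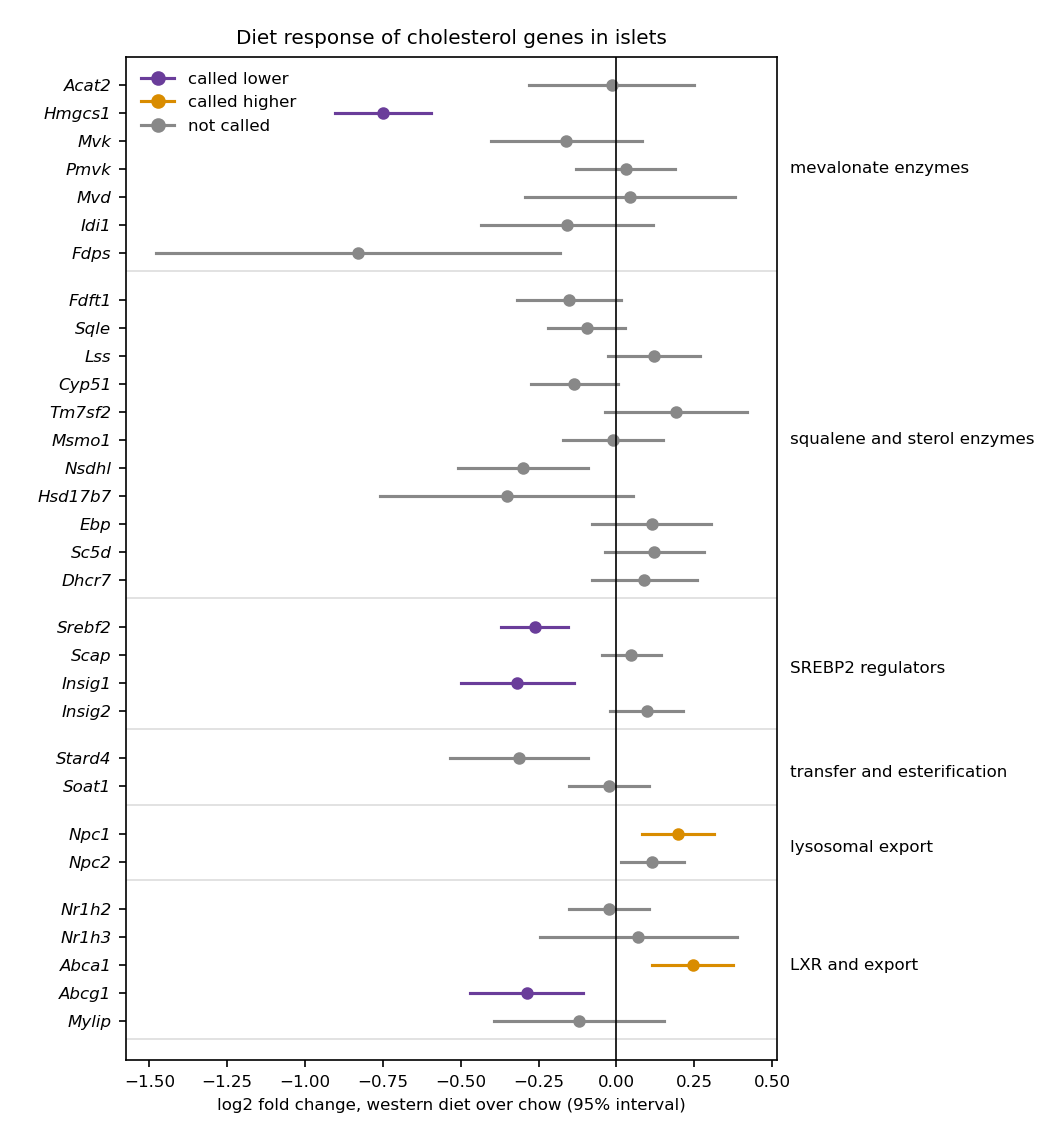
Log2 fold change of western diet over chow for each of the 31 genes, grouped by role, with 95% intervals from edgeR's quasi-likelihood fit (5 mice per diet) and colours for genes called lower, called higher or not called at an adjusted p under 0.05. Hmgcs1 at -0.75 lies farthest from 0 among the called genes, Fdps has a lower estimate of -0.83 with a wide interval, and all other estimates lie between -0.35 and 0.25.

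Promoters of 4 genes with called changes are printed to show which letters they hold of those that SREBP2, its partner NF-Y and LXR are known to read. The sequences are from RefSeq on GRCm38.p6, the same assembly as the gene coordinates in the deposited table, and run 5′ to 3′ on the strand of the gene, within the 250 bases upstream of the RefSeq start and outside the deposited gene span. Capitals mark matches to the sterol regulatory element, to the CCAAT box in either orientation (ATTGG on the other strand) and to an LXR-type repeat.
Hmgcs1, chr13:119690101-119690350, plus strand: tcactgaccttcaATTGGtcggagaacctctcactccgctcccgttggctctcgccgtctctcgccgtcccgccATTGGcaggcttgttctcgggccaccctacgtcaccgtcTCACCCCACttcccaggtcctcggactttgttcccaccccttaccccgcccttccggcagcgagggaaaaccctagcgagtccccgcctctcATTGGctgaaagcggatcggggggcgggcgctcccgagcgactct
Srebf2, chr15:82147019-82147180, plus strand: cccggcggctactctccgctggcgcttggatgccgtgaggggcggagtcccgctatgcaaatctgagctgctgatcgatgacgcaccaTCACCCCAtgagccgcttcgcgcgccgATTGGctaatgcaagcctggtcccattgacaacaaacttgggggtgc
Insig1, chr5:28071162-28071362, plus strand: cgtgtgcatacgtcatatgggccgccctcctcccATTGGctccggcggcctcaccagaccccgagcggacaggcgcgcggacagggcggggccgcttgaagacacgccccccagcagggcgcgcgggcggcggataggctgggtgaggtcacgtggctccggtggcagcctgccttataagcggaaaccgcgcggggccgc
Abca1, chr4:53159896-53160145, minus strand: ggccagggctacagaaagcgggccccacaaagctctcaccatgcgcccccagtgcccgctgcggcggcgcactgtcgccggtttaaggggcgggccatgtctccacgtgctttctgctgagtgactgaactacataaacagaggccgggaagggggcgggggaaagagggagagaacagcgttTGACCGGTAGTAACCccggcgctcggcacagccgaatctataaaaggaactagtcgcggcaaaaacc

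RefSeq promoters were held for 25 of the 31 genes, and motifs were searched on both strands of the 250 upstream bases. The sterol regulatory element TCACNCCAC was found in 1 of the 25, Hmgcs1, at 137 to 129 bases upstream of the start, and in 1.23% of 27018 genes with a promoter. A shorter form, TCACCCCA, which overlaps it and was added after the sequences had been seen, was found in 2 of the 25, Hmgcs1 and Srebf2, and in 1.54% of all genes. The Srebf2 match lay 162 to 155 bases upstream. CCAAT boxes were found in 20 of the 25 promoters (80.0%) and in 37.5% of all genes. Hmgcs1 had 3 of them, and Srebf2 and Insig1 had 1 each. The LXR-type direct repeat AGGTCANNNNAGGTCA was in 0 of the 25 and in 0.0148% of all genes. A looser form, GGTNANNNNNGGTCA, also added after the sequences had been seen, was in 1 of the 25, Abca1, at 67 to 53 bases upstream, and in 0.189% of all genes. The 27018 genes were not limited to those that passed the filter on low counts, which all 31 passed, so their shares are of an unlike set. A match is a run of letters and not a measured site. Genes that did not pass the test, such as Mvk, Msmo1 and Hsd17b7, also carried CCAAT boxes, with 5 in Mvk, 3 in Msmo1 and 3 in Hsd17b7.

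The mevalonate enzymes carry acetyl-CoA units to farnesyl diphosphate, the last precursor shared with isoprenoids. Of 7 enzymes 1 fell (14.3%, beside 5.5% of all genes tested) and 0 rose, and the median log2 fold change was -0.16. The enzyme that fell was Hmgcs1 (ENSMUSG00000093930, GRCm38 chromosome 13, 119690379 to 119708260, plus strand), which encodes the cytosolic synthase that joins acetyl-CoA and acetoacetyl-CoA to HMG-CoA. In the order western diet cage 4 mice 1, 2, 5 and 4 and cage 2 mouse 5, then chow mice 1 to 5, which is kept throughout, Hmgcs1 had 44.0, 46.4, 38.9, 40.0 and 38.6 CPM on western diet, against 64.3, 73.0, 60.8, 80.0 and 71.7 CPM on chow. Every western diet mouse lay below every chow mouse, and the western diet mouse of cage 2 had the lowest value. The means were 41.6 ± 3.47 CPM on western diet and 69.9 ± 7.58 CPM on chow (SD, n = 5 each). The log2 fold change was -0.75 ± 0.07 (SE), a change of -40.6% with a 95% interval of -46.6% to -33.8% (edgeR adjusted p = 2.07e-05). It ranged between -0.80 and -0.70 when each mouse was left out in turn and stayed called each time. Fewer cells of a type and less RNA per cell cannot be told apart in whole islets. An antisense gene, Gm48342, shares 12.1% of the exonic bases of Hmgcs1, and its reads may be counted with it, as the sources used here name no strand setting for the counting.

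The other mevalonate enzymes did not pass the test. Mvk, mevalonate kinase, had a log2 fold change of -0.16 ± 0.12 (SE) and an edgeR adjusted p of 0.395. Idi1, the isomerase that makes the allylic isoprene unit, had -0.16 ± 0.13 (SE, adjusted p = 0.47). Acat2, the cytosolic thiolase that makes acetoacetyl-CoA, was at -0.02, the phosphomevalonate kinase gene Pmvk at 0.03 and the decarboxylase gene Mvd at 0.04. Fdps, farnesyl diphosphate synthase, had 0.517, 0.967, 0.606, 0.591 and 0.670 CPM on western diet, against 1.37, 1.11, 0.858, 1.67 and 0.974 CPM on chow. Its estimate of -0.83 ± 0.31 (SE) was the lowest of the 31, but the diets overlapped and the adjusted p was 0.0908, from 10 to 28 counts per library. A second protein-coding gene on the same strand, Gm43738, shares 26.7% of its exonic bases, so that reads in the shared bases cannot be assigned to either gene.

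Of the 11 enzymes from squalene synthase to the final sterol reductases, 0 rose and 0 fell in edgeR's quasi-likelihood test, and 1, Nsdhl, had an unadjusted p under 0.05. In limma-voom 0 were called, and DESeq2 called 1, again Nsdhl, with an adjusted p of 0.0358. The median log2 fold change was -0.01 with a range of -0.35 to 0.19. Sqle, squalene epoxidase and an early oxygen-requiring step, had 120.3, 144, 139, 121 and 123 CPM on western diet, against 137, 136, 129, 143 and 147 CPM on chow. Western diet cage 4 mice 2 and 5 lay within the chow range, and the other western diet mice lay below it. The log2 fold change of Sqle was -0.10 ± 0.06 (SE) with a 95% interval of -0.22 to 0.03 (edgeR adjusted p = 0.312), so that a decrease of the size seen in Hmgcs1 lay outside its interval.

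Nsdhl, a sterol dehydrogenase of C4 demethylation, had 10.8, 10.1, 10.6, 10.0 and 9.42 CPM on western diet, against 13.5, 13.3, 10.6, 11.1 and 14.0 CPM on chow. Chow mouse 3 lay below western diet cage 4 mouse 1, and the other chow mice lay above all western diet mice. Its log2 fold change was -0.30 ± 0.10 (SE) and its edgeR adjusted p was 0.06. The call was made with a filter at 5 CPM (0.0385), without chow mouse 3 (0.0361) and without chow mouse 4 (0.044). Hsd17b7, the keto-reductase of the same demethylation complex, had -0.35 ± 0.19 (SE) on the log2 scale (edgeR adjusted p = 0.255, and 0.0488 without western diet cage 4 mouse 2). Msmo1, the sterol methyl oxidase of that complex, was at -0.01. Of the earlier steps, Fdft1, squalene synthase, was at -0.15, Lss, which closes the sterol rings, at 0.12 and Cyp51, the lanosterol demethylase, at -0.13. Fdft1 shares 18.3% of its exonic bases with the abundant cathepsin gene Ctsb on the opposite strand. Of the late steps, the sterol reductase gene Tm7sf2 was at 0.19, the isomerase gene Ebp at 0.11, the desaturase gene Sc5d at 0.12 and the reductase gene Dhcr7 at 0.09. In GENCODE M21, which gives Tm7sf2 another span than the deposited one, it shares 12.1% of its exonic bases with Vps51 on the same strand.

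**Figure D3:**
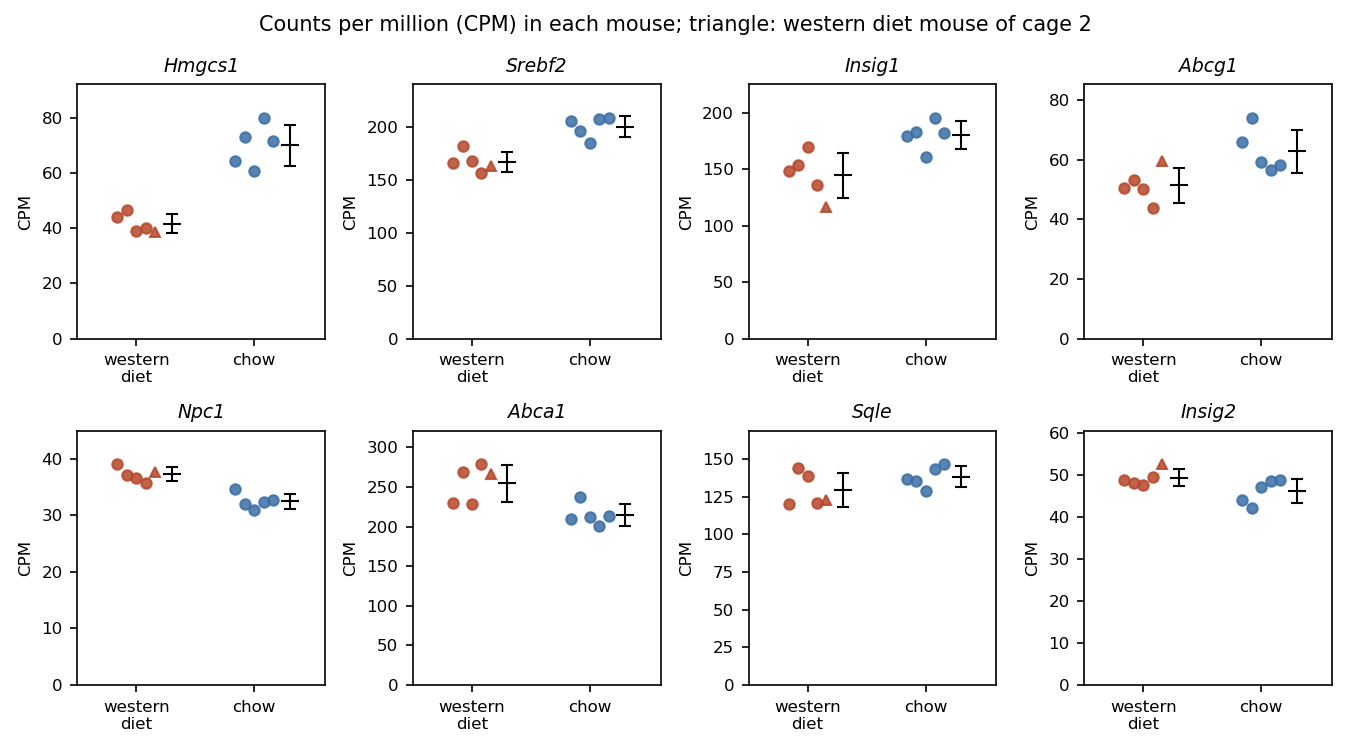
CPM of 8 genes in each mouse, western diet left and chow right, with 5 points per diet and bars for the mean and SD. Hmgcs1, Srebf2 and Npc1 separate the diets without overlap, whereas the western diet and chow points of Insig1, Abca1 and Abcg1 overlap.

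Of 4 genes, for SREBP2 itself and for the proteins that set its activity, 2 fell and 0 rose, with a median log2 fold change of -0.11. The share that fell was 50% in this short list, beside 5.5% of all genes tested. Srebf2 (ENSMUSG00000022463, GRCm38 chromosome 15, 82147181 to 82205379, plus strand) encodes SREBP2 itself and is among the targets of its own protein. It had 166, 182, 168, 157 and 163 CPM on western diet, against 206, 196, 185, 207 and 209 CPM on chow. The highest western diet value lay just below the lowest chow value, so that the diets did not overlap. Its means were 167 ± 9.53 CPM on western diet and 200.5 ± 10.1 CPM on chow (SD, n = 5 each), a log2 fold change of -0.26 ± 0.05 (SE) or -16.6% (edgeR adjusted p = 0.00442). The call was kept under every alternative run, with adjusted p-values of at most 0.0158.

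Insig1 (ENSMUSG00000045294, GRCm38 chromosome 5, 28071363 to 28078662, plus strand) encodes the sterol-regulated anchor of SCAP and is known as a sensitive SREBP2 target. It had 148, 154, 169.8, 136 and 116 CPM on western diet, against 179.8, 183, 161, 196 and 183 CPM on chow. The lowest value was that of western diet cage 2 mouse 5, and western diet cage 4 mouse 5 lay above chow mouse 3. It fell, with a log2 fold change of -0.32 ± 0.08 (SE) and a 95% interval of -0.50 to -0.14 (edgeR adjusted p = 0.0297). The call ended when western diet cage 4 mouse 1 (adjusted p = 0.0601) or its cage mate 4 (0.0709) was left out, or any of chow mice 1 (0.0631), 2 (0.0582), 4 (0.0523) and 5 (0.0579). Insig2, its paralog, had a log2 fold change of 0.10 ± 0.06 (SE, 95% interval -0.02 to 0.21, adjusted p = 0.277). Scap was at 0.05 ± 0.04 (SE, adjusted p = 0.532).

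Between synthesis and storage, Stard4 encodes a soluble protein that carries cholesterol between membranes and is sterol-regulated. It had 27.2, 37.6, 31.2, 25.7 and 28.0 CPM on western diet, against 38.1, 32.3, 33.6, 37.9 and 43.6 CPM on chow. Western diet cage 4 mouse 2 lay above chow mice 2 and 3, and the other western diet mice lay below all chow mice. Its log2 fold change of -0.31 ± 0.10 (SE) had an edgeR adjusted p of 0.0677. DESeq2 called it (0.0316), as did edgeR with a filter at 5 CPM (0.0484), without western diet cage 4 mouse 2 (0.0105) and without chow mouse 2 (0.0442). Soat1, which esterifies cholesterol for storage in droplets, was at -0.02 ± 0.06 (SE, adjusted p = 0.857).

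In the lysosome NPC2 and NPC1 pass cholesterol released from lipoproteins to the lysosomal membrane. Npc1 (ENSMUSG00000024413, GRCm38 chromosome 18, 12189693 to 12236400, minus strand) rose. It had 39.1, 37.2, 36.7, 35.8 and 37.6 CPM on western diet, against 34.6, 31.9, 30.9, 32.3 and 32.6 CPM on chow. Every western diet value lay above every chow value, by a small margin. Its means were 37.3 ± 1.21 CPM on western diet and 32.5 ± 1.36 CPM on chow (SD, n = 5 each), a log2 fold change of 0.20 ± 0.05 (SE) or 14.7% (edgeR adjusted p = 0.0277). The adjusted p was 0.0684 when western diet cage 4 mouse 1 was left out, 0.081 when chow mouse 3 was, 0.0562 when chow mouse 4 was, and 0.0512 with no filter on low counts. Npc2 had a log2 fold change of 0.12 ± 0.05 (SE, adjusted p = 0.13), with 157 to 174 CPM on western diet and 141 to 160.4 CPM on chow. The gene Rmc1 on the opposite strand shares 4.52% of the exonic bases of Npc1 and had a log2 fold change of 0.09 (adjusted p = 0.532).

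The exporters moved apart. Abca1 (ENSMUSG00000015243, GRCm38 chromosome 4, 53030787 to 53159895, minus strand), which loads cholesterol onto lipid-poor apolipoprotein, had 229.9, 269, 229, 279 and 266 CPM on western diet, against 209, 238, 212, 201 and 214 CPM on chow. Chow mouse 2 lay above western diet cage 4 mice 1 and 5, and the other chow mice lay below all western diet mice. Abca1 rose, with 255 ± 23.4 CPM on western diet and 215 ± 13.7 CPM on chow (SD, n = 5 each) and 0.25 ± 0.06 (SE) on the log2 scale (edgeR adjusted p = 0.0174). The adjusted p was 0.0603 when western diet cage 4 mouse 4 was left out, 0.0525 when chow mouse 1 was, 0.051 when chow mouse 4 was, and 0.069 when chow mouse 1 and western diet cage 2 mouse 5 were both left out.

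Abcg1 (ENSMUSG00000024030, GRCm38 chromosome 17, 31057698 to 31115777, plus strand), which exports sterols to mature lipoproteins and acts within cells, had 50.7, 53.1, 50.1, 43.7 and 59.8 CPM on western diet, against 66.1, 74.2, 59.2, 56.6 and 58.2 CPM on chow. Western diet cage 2 mouse 5 lay above chow mice 3, 4 and 5, and the other western diet mice lay below all chow mice. Abcg1 fell, at -0.29 ± 0.09 (SE) on the log2 scale (edgeR adjusted p = 0.0433). The call ended when any of western diet cage 4 mice 1 (adjusted p = 0.0911), 2 (0.0726), 5 (0.0986) and 4 (0.0825) was left out, or any of chow mice 1 (0.102), 2 (0.0757) and 3 (0.0555). Neither receptor gene passed the test, with Nr1h2 (LXR beta) at -0.02 ± 0.06 (SE) and Nr1h3 (LXR alpha) at 0.07 ± 0.15 (SE). Mylip, an LXR target that directs lipoprotein receptors to degradation, was at -0.12 ± 0.13 (SE, adjusted p = 0.594). Summed markers of macrophages, a cell type rich in LXR targets, were 67.7 to 109 CPM on western diet and 80.4 to 101.5 CPM on chow. Of 11 tested markers 1, C1qa, fell (9.09%, beside 5.5% of all genes tested). The markers did not move as one, as 7 of the 11 had a positive log2 fold change and 4 a negative one. C1qb was at 0.11 and C1qc at 0.16, and neither was called. None of the 12 listed was at 0 in all libraries, and the part of macrophages in the values of these exporters was not tested.

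Ratios of paired members within a library do not depend on library scaling. The 6 pairs were chosen with the values above known, so the p-values of their tests are not separate evidence for a gap. Nor do these p-values measure its size, and adjusting them does not allow for that choice of pairs. The smallest two-sided exact permutation p for 5 against 5 is 0.00794, and p-values were adjusted over the 6 ratios. The Hmgcs1 to Sqle count ratio was 0.281 to 0.366 on western diet (median 0.321), against 0.469 to 0.558 on chow (median 0.488) (exact permutation p = 0.00794, adjusted p = 0.0159). The diets did not overlap. The Srebf2 to Scap ratio was 1.93 to 2.23 on western diet (median 2.05), against 2.43 to 2.69 on chow (median 2.55), also without overlap (exact permutation p = 0.00794, adjusted p = 0.0159). Insig1 to Insig2 was 2.21 to 3.56 on western diet (median 3.03), against 3.40 to 4.35 on chow (median 4.02), with overlap (exact permutation p = 0.0159, adjusted p = 0.0238). Each of these pairs sets a gene that fell against a gene of synthesis or sterol sensing that did not pass the test.

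The Abca1 to Abcg1 ratio was 4.46 to 6.38 on western diet (median 4.58), against 3.17 to 3.67 on chow (median 3.55). The diets did not overlap, and the mean difference in log2 ratio was 0.53 ± 0.11 (SE, exact permutation p = 0.00794, adjusted p = 0.0159). The Npc1 to Npc2 ratio was 0.214 to 0.239 on western diet (median 0.221), against 0.199 to 0.231 on chow (median 0.210) (exact permutation p = 0.151, adjusted p = 0.181). The Nr1h3 to Nr1h2 ratio was 0.157 to 0.231 on western diet (median 0.201), against 0.135 to 0.249 on chow (median 0.190) (exact permutation p = 0.619, adjusted p = 0.619). These last pairs overlapped between the diets.

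**Figure D4:**
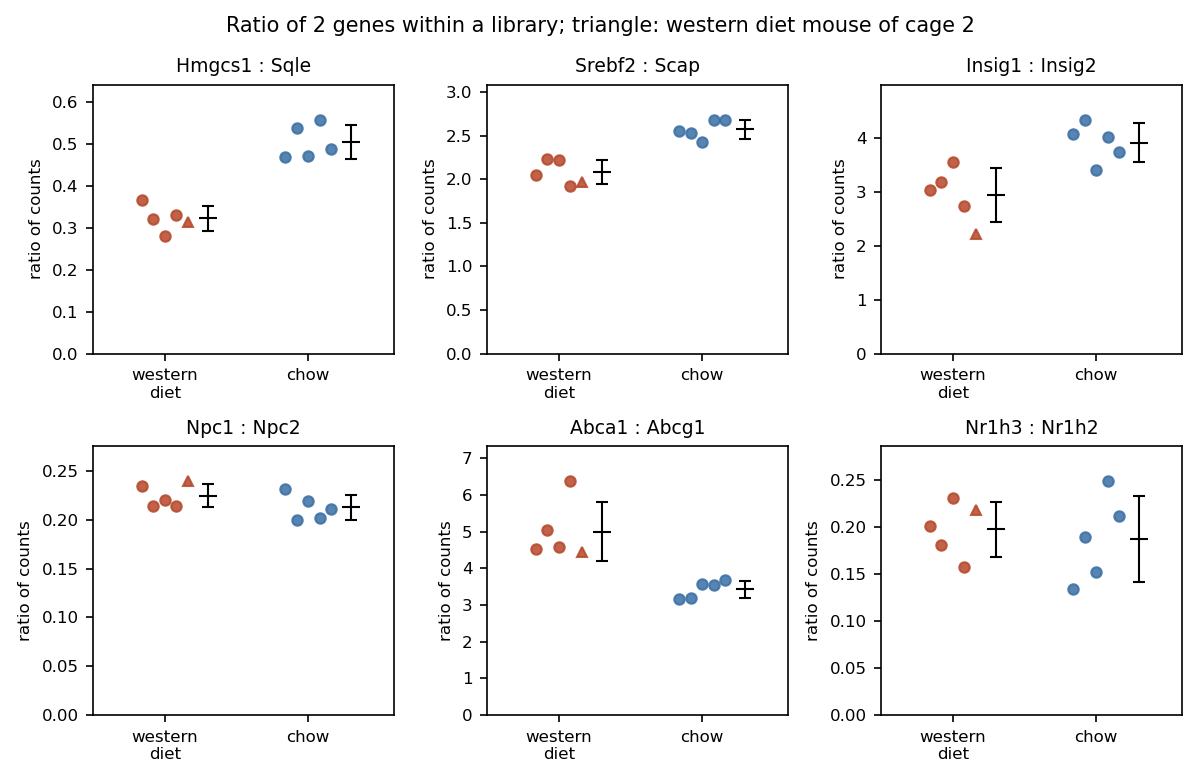
Within-library count ratios of 6 gene pairs for each mouse, on linear axes that start at 0, western diet left and chow right, with bars for the mean and SD of 5 mice per diet. Hmgcs1 to Sqle and Srebf2 to Scap were lower on western diet and Abca1 to Abcg1 was higher, each without overlap.

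On a scale per length, and by the mean over all 10 libraries, the authors' FPKM ranked Insig1 highest of the 31 genes with 46.7 ± 6.36 FPKM on western diet and 58.4 ± 4.08 on chow (5 mice each, mean and SD, as for the FPKM that follow). Npc2 followed with 30.5 ± 1.10 FPKM on western diet and 28.2 ± 1.49 on chow, and Srebf2 with 23.2 ± 1.37 FPKM on western diet and 27.9 ± 1.39 on chow. On western diet alone, Abca1 and Sqle lay above Srebf2 by less than the SD between mice. Sqle had 23.3 ± 2.02 FPKM on western diet and 24.9 ± 1.246 on chow and Abca1 had 24.5 ± 2.31 FPKM on western diet and 20.7 ± 1.33 on chow. Hmgcs1 had 9.03 ± 0.782 FPKM on western diet and 15.2 ± 1.66 on chow. The lowest were Hsd17b7 with 1.11 ± 0.389 FPKM on western diet and 1.42 ± 0.197 on chow and Fdps with 0.159 ± 0.0419 FPKM on western diet and 0.285 ± 0.0774 on chow. The counted level of Fdps may be too low, because 26.7% of its exonic bases are shared with Gm43738 on the same strand. In both diets the FPKM of Insig1 and of Srebf2 exceeded that of each of the 7 mevalonate enzymes.

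**Figure D5:**
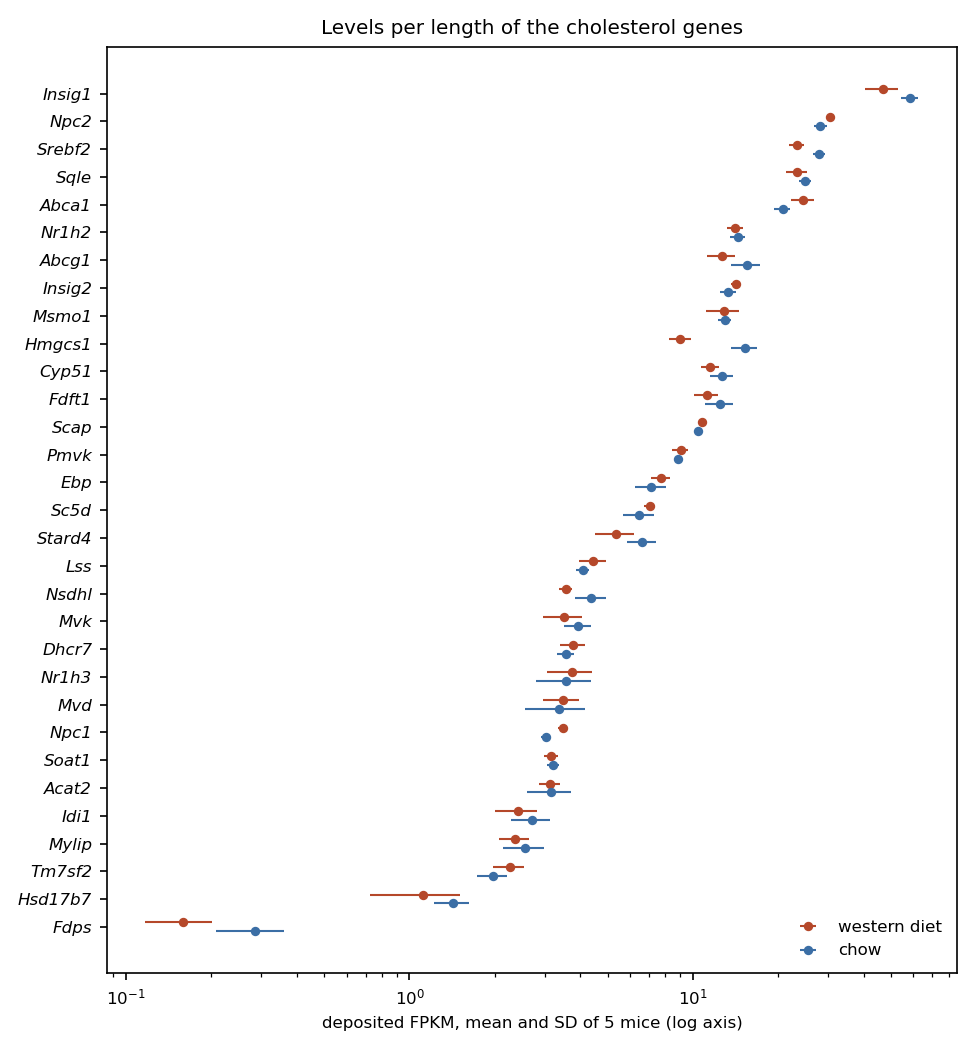
The authors' FPKM, a level per gene length, of the 31 genes on a log axis, as the mean and SD of 5 mice per diet, with western diet above chow for each gene. Levels run from Insig1 at the top to Fdps at the bottom.

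Beyond the 31 genes, 53 other genes of the pathway were listed and 51 were tested. Of these 3 fell (5.88%) and 2 rose (3.92%), shares close to 5.5% and 5.27% of all genes tested, and their median log2 fold change was 0.03. Of the other synthesis genes, the thiolase gene Acat1 was at 0.11 and the acetoacetyl-CoA synthetase gene Aacs at -0.09 on the log2 scale, and neither was called. Among 10 genes of SREBP processing and sterol sensing, Srebf1, which encodes the SREBP1 proteins of fatty acid synthesis and is an LXR target in liver, had 124, 135, 123, 116 and 144 CPM on western diet, against 183, 161, 156, 152 and 146 CPM on chow. The diets did not overlap, and the log2 fold change was -0.31 ± 0.07 (SE, edgeR adjusted p = 0.00632). Rnf145, a sterol-responsive ubiquitin ligase and known LXR target, had 133, 121, 122, 124 and 113 CPM on western diet, against 108, 108, 105, 102 and 106 CPM on chow. It rose without overlap, with 0.21 ± 0.05 (SE) on the log2 scale (edgeR adjusted p = 0.00982). Both calls were kept under every alternative run. Mbtps1, the first protease that cuts SREBP, was at 0.02.

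Of 6 other uptake receptors 1 fell (16.7%, beside 5.5% of all genes tested). It was Lrp8, a receptor of the lipoprotein receptor family, with -0.33 ± 0.09 (SE) on the log2 scale (edgeR adjusted p = 0.0242). Its call ended when any of western diet cage 4 mice 1 (adjusted p = 0.0594), 2 (0.06) and 4 (0.0612) was left out, or any of chow mice 1 (0.0514), 2 (0.0509) and 3 (0.0541). DESeq2 called 2 of the 6 receptors lower, 3 had an unadjusted p under 0.05 in edgeR, and 5 had a negative log2 fold change. The sorting receptor gene Sort1 was at -0.08 and Vldlr, the very-low-density lipoprotein receptor, at -0.11. Of 11 other genes of sterol transfer and ester hydrolysis 0 were called by edgeR, 1 by DESeq2, and 1 had an unadjusted p under 0.05 in edgeR. In that list the lysosomal membrane gene Scarb2 was at 0.04 and the oxysterol-binding Osbp at 0.24 ± 0.08 (SE, edgeR adjusted p = 0.0613, DESeq2 adjusted p = 0.0353). Of 8 other LXR partners and targets 0 were called by edgeR, 0 by DESeq2, and 1 had an unadjusted p under 0.05 in edgeR, with the corepressor gene Ncor1 at -0.14 and the transporter gene Abca7 at -0.12.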

How the data were processed

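RNA of islets from 5 western diet and 5 chow mice was sequenced, and the mice were grouped by their labels. Libraries were made with an NEBNext Ultra kit from RNA of a micro column kit, per the labels' protocols. Per the submitters' processing notes the tools were STAR 2.5, HTSeq 2 and DESeq2 and the builds mm10 and GRCm38. The sources used here name no strand setting. The deposited counts are raw whole numbers of reads per gene, per the file headers. The deposited FPKM equal count per length times 1 constant per library (largest relative departure 5.1e-15) and were used for levels only. The authors' log2 fold changes and the authors' p-values come from their own comparison, and 88 genes have no p there. A further 10 deposited columns of normalized values per sample were not used.

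The counts were tested in R 4.3.3 with edgeR 4.0.16 (filterByExpr with a minimum count of 10, TMM factors, robust quasi-likelihood fit, no covariate). P-values were Benjamini-Hochberg adjusted over 15104 genes, and genes were called under 0.05. Standard errors are the absolute fold change (log2) over the square root of F, and intervals are 95%. The scripts were tested on simulated data. The spread between mice includes counting error. Depth was 1.65e+07 to 2.39e+07 counts per library. The labels name separate mice.

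The 31 genes, the 53 other pathway genes and the marker lists were chosen with earlier results of these data known. The text names all 31 genes, the called other pathway genes, and up to 2 uncalled genes per list with the highest mean CPM. A few genes within this rule are counted but not reported by name. Exon overlaps come from GENCODE M21, which gives 28 of the 31 genes the deposited span, and 10 of the 31 share exonic bases with another gene. Genes of the pathway that are not listed here were not analysed here. Alternatives were other scaling factors (RLE, upper quartile), no filter or 5 CPM as the filter, DESeq2 1.42.0, voom of limma 3.58.1, no robust moderation, mouse number as a block, and each mouse left out. Leaving out western diet cage 2 mouse 5 and chow mouse 1 together was chosen after seeing the data.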

Additional observations from a re-analysis of the deposited data

Results flagged for a closer look

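Among 62 sets of 5 mice (31 genes in each diet), 4 had a mouse that stood apart from the others by Dixon's ratio of gap to range (above 0.71), and chance marks about 5% of such sets. Mvk had 12 CPM in western diet cage 4 mouse 2, and 8.46 to 9.03 CPM in the other western diet mice (ratio 0.837). Scap had 75.7 CPM in western diet cage 4 mouse 5, and 80.9 to 82.6 CPM in the other western diet mice (0.754). Nr1h2 had 41.7 CPM in western diet cage 4 mouse 2, and 47.5 to 49.8 CPM in the other western diet mice (0.717). Soat1 had 34.1 CPM in chow mouse 5, and 30.2 to 31.2 CPM in the other chow mice (0.746). None of these 4 genes was called.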

How the results depend on the processing

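Over 948 recomputed fold changes of the genes named, 870 kept their direction and side of the threshold, 39 kept the direction but lost the call, 16 gained a call and 23 changed sign, all 23 in genes not called. The 1627 genes called became 841 with mouse number as a replicate block and 938 to 1813 when each mouse was left out. The members that fell numbered 2 to 5 when each mouse was left out. The members that rose numbered 1 with no filter, 0 with the replicate block, 1 with both western diet cage 2 mouse 5 and chow mouse 1 left out, and 0 to 2 when each mouse was left out. Mouse numbers name mice within a cage, and the labels give no pairing across diets. Same-numbered western diet and chow mice gave correlations of deviations between -0.129 and 0.0483. Differently numbered mice were not compared, so these values do not decide about pairing. With the block the calls of Insig1 (adjusted p = 0.0802), Npc1 (0.109), Abca1 (0.0507), Nus1 (0.0971) and Lrp8 (0.137) were lost. Nr1h3 changed sign with the block (-0.0064) and with those mice left out (-0.069), as did Mvd (-0.021) and Msmo1 (0.035) with those mice left out. Leaving out each mouse gave log2 fold changes of -0.099 to 0.086 for Acat2, -0.073 to 0.18 for Mvd, -0.069 to 0.060 for Msmo1, -0.042 to 0.012 for Soat1, -0.059 to 0.021 for Nr1h2, -0.023 to 0.19 for Nr1h3, -0.063 to 0.019 for Coq2 and -0.094 to 0.18 for Cyp46a1. The cause of these changes was not tested. Genes of few counts are measured least precisely, as in Fdps with 10 to 28 counts per library. Whether depth or the bases that Fdps shares with Gm43738 kept its counts low was not tested.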

Other observations

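Farnesyl diphosphate also feeds the isoprenoid branches that make dolichol, ubiquinone and prenyl groups. Of 8 such genes 1 rose (12.5%, beside 5.27% of all genes tested) and 0 fell, and the median log2 fold change was 0.11. Nus1, a subunit of the dolichol-making prenyltransferase, had 128, 112, 121, 115 and 107 CPM on western diet, against 94.3, 110.1, 91.4, 102 and 100.4 CPM on chow. Western diet cage 2 mouse 5 lay below chow mouse 2, and the other western diet mice lay above all chow mice. The log2 fold change was 0.23 ± 0.06 (SE, edgeR adjusted p = 0.0194). The call ended when western diet cage 4 mouse 1 (adjusted p = 0.052), chow mouse 1 (0.0586) or chow mouse 3 (0.0639) was left out. Dhdds, the catalytic partner of Nus1, had 123, 102, 109, 128 and 98.1 CPM on western diet, against 75.5, 109.9, 94.9, 88.9 and 81.5 CPM on chow. Chow mouse 2 lay within the western diet range. Its log2 fold change was 0.31 ± 0.11 (SE, edgeR adjusted p = 0.0816), with adjusted p-values of 0.0204 in DESeq2, 0.0499 in limma-voom and 0.0129 in edgeR without chow mouse 2. Coq2 of ubiquinone synthesis was at -0.02.

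Of 5 oxysterol and bile acid enzymes 3 passed the filter on low counts, and 0 of the 3 had an unadjusted p under 0.05 in edgeR or a call in DESeq2. The oxysterol hydroxylase gene Cyp7b1 had a log2 fold change of -0.17 ± 0.14 (SE) and the cholesterol hydroxylase gene Cyp46a1 of 0.05 ± 0.24 (SE). Ch25h and Hsd3b7 did not pass the filter.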
